A study of Homo sapiens with 16 samples.

Results

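The CXCR4 chemokine axis comprises 3 genes: CXCR4 and ACKR3, which encode receptors, and CXCL12, which encodes the ligand that both bind. They were taken by gene symbol from the 63187 genes of the deposited count table, and each symbol matched 1 row. The set was chosen on levels in these same libraries, so differences between the groups, within batches and in batch 2 are described for all 3 genes without p-values. The 16 RNA libraries, in 4 groups of 4, came from the line SK-N-BE(2), which derives from a MYCN-amplified neuroblastoma. WT cells carry no listed construct, and the other groups were transfected with HIF-2α in full length (FL) or in a form labelled NCTAD or cIDR, written ΔN-CTAD and Δc-IDR in the study design. All cells grew at 21% oxygen, and each replicate number is also labelled as a batch, so that every batch holds 1 library of each group. The vector, the time after transfection and any empty vector in WT cells are not given in the sources used here, so transfection itself and HIF-2α cannot be told apart in a comparison with WT.

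CXCR4 is a receptor of the G protein-coupled class. Binding of CXCL12 activates inhibitory G proteins and guides migration and homing of leukocytes, stem cells and neural crest derivatives, and the receptor is studied in neuroblastoma for its part in spread to bone marrow. ACKR3, formerly CXCR7, is an atypical receptor for CXCL12 and CXCL11 that works mainly through arrestins and removes ligand from the surroundings. CXCR4 is a known hypoxia-responsive gene, and HIF-2α, encoded by EPAS1, is an oxygen-regulated transcription factor that binds DNA together with ARNT.

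CXCR4 (ENSG00000121966.8) lies on the minus strand of chromosome 2 (GRCh38, chr2:136114349-136118165), CXCL12 (ENSG00000107562.18) on the minus strand of chromosome 10 (chr10:44370165-44386493) and ACKR3 (ENSG00000144476.6) on the plus strand of chromosome 2 (chr2:236567787-236582358). Spans are those of protein-coding genes in GENCODE 29, whose records of these genes carry older version numbers, and 0 other annotated genes overlap any of them. The 250 bases before the outermost RefSeq start of CXCR4 are shown because a HIF construct was the treatment. They span chr2:136118150-136118399 (GRCh38.p14, minus strand, written 5′ to 3′), and capitals mark GCGTG, 1 of the pair of core words ACGTG and GCGTG that HIF dimers recognise.

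CXCR4: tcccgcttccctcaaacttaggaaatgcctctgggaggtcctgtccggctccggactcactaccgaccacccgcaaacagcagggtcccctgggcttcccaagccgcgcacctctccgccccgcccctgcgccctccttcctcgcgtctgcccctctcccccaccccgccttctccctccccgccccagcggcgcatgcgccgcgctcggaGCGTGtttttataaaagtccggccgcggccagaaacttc

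The word GCGTG stands 39 to 35 bases before that start, and ACGTG was not found in the window on either strand. Searched on both strands, GCGTG was in 32.2% and ACGTG, which is also part of the E-box CACGTG, in 18.5% of 35116 RefSeq windows of this length. Among the other entries of CXCR4, the third had GCGTG on each strand and the second had neither word, and the single CXCL12 window had neither. Such matches in letters describe the sequence and are no evidence of binding.

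Libraries held 38572655 to 56065781 estimated counts in total. EPAS1 (ENSG00000116016.14) served as the check of the labels: in counts-per-million (CPM) its level lay between 13.0 and 28.1 in WT and between 1320 and 5852 CPM in the transfected libraries, without overlap. All 11 neuroblastoma markers, such as HAND2 and DBH, were expressed. Of the 12 leukocyte markers, 9 had at most 3 counts in any library, PTPRC and CD3E among them, and CD3D, MS4A1 and NKG7 were at 0 in all 16. Of the 12, 2 passed the low-count filter. CORO1A was at 7.93 to 14.6, CD14 at 0.866 to 1.63 and CSF1R at 0.0209 to 0.299 CPM. Of the 9 fibroblast markers 7 passed the low-count filter, with THY1 at 260 to 388, PDGFRB at 63.0 to 134, LUM at 15.5 to 48.3 and DCN at 8.09 to 18.7 CPM, and FAP was at 0 in all libraries. Of the 8 endothelial markers 2 passed, VWF (0.0965 to 1.51 CPM) was the most abundant, CDH5 reached 0.863 CPM, and PECAM1, TEK, TIE1 and EMCN had at most 3 counts. In bulk RNA, fewer expressing cells and less RNA per cell cannot be told apart. Nothing in the labels states that replicates came from separate cultures, so spreads and p-values refer to these libraries, which may differ only technically.

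The receptor CXCR4 was low but measured in every library, with 44 to 415 counts, and it varied more between groups than the ligand did. In WT it was 1.98, 0.894, 1.54 and 0.966 CPM in batches 1 to 4. In FL it was 3.16, 8.13, 2.34 and 2.27 CPM in the same order of batches. All FL libraries lay above all WT libraries, and the FL library of batch 2 stood far above the other 3. In NCTAD the levels were 7.92, 6.44, 4.33 and 4.80 CPM. In cIDR they were 3.14, 2.80, 1.37 and 1.51 CPM. NCTAD did not overlap WT or cIDR, whereas cIDR overlapped both WT and FL, and FL overlapped NCTAD through its batch 2 library alone.

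**Figure D1:**
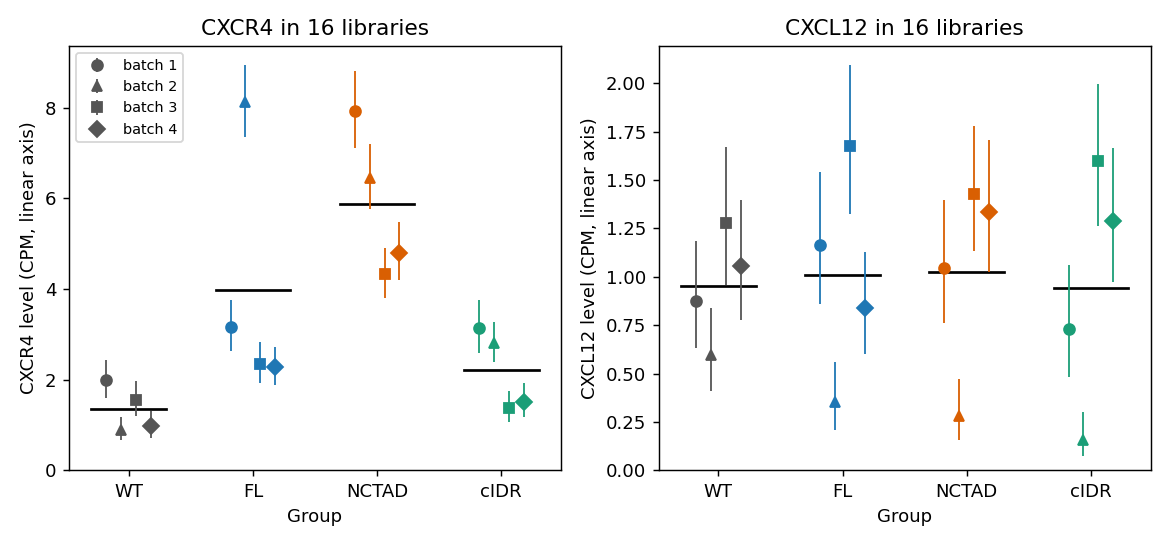
CXCR4 (left) and CXCL12 (right) in CPM (linear axes, different scales) for each of the 16 libraries, grouped on the x axis; marker shapes are batches, vertical lines are exact Poisson 95% intervals of the counts, and horizontal bars are group means of 4 libraries. CXCR4 reached 8.13 CPM in FL batch 2 and stayed at or under 1.98 CPM in WT, while the lowest CXCL12 value of each group was that of batch 2.

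By group mean, the order of CXCR4 levels was WT (1.35 ± 0.514 CPM, SD, n = 4), cIDR (2.21 ± 0.895), FL (3.97 ± 2.80) and NCTAD (5.87 ± 1.64). No neighbours in this order were separated beyond the spread of their libraries. The FL libraries differed by more than counting error: the exact Poisson 95% interval was 7.36 to 8.95 CPM for FL in batch 2 and 2.64 to 3.75 CPM for FL in batch 1. Such intervals cover counting error only.

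Against WT, CXCR4 in the fit over all 16 libraries was higher by 1.56 ± 0.42 (log2 fold change ± SE) in FL, 2.12 ± 0.43 in NCTAD and 0.71 ± 0.42 in cIDR. These 3 comparisons share the WT libraries. Of all 19530 genes tested, 0.456% had every FL library above every WT library, 0.876% had the same for NCTAD, and 5.34% and 8.85% were higher in 4 of 4 batches. CXCR4 belonged to each of these sets, on which nothing is built since it was chosen for these differences. For cIDR, 3 of 4 batches were higher than WT, as were at least 3 for 36.1% of genes. Without the batch 2 library of FL the FL difference was 0.94, and without the whole of batch 2 it was 0.76.

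Within batches 1 to 4, CXCR4 in FL differed from the WT library by 0.66, 3.13, 0.59 and 1.20 in log2 CPM, computed with a prior count of 2. On the same values as ratios, NCTAD held 3.93, 6.93, 2.75 and 4.80 times the WT level. For cIDR the ratios were 1.57, 3.04, 0.890 and 1.54, so that it was below WT in batch 3. On the log2 scale the mean difference over the 4 batches was 1.39 ± 1.19 (SD) for FL, 2.12 ± 0.556 for NCTAD and 0.678 ± 0.724 for cIDR. The NCTAD difference was thus the steadiest of the 3 relative to its size, and the SD of the cIDR difference exceeded its mean.

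Between constructs, the cIDR to NCTAD difference of CXCR4 varied least. The cIDR libraries held 0.400, 0.438, 0.323 and 0.321 times the NCTAD level in batches 1 to 4, a mean log2 difference of −1.45 ± 0.224 (SD, n = 4). Every cIDR library was below every NCTAD library, a pattern found for 0.41% of tested genes, and 6.03% were lower in 4 of 4 batches. Against FL, cIDR held 0.995, 0.348, 0.592 and 0.672 times the level, with nearly equal levels in batch 1 (3.14 and 3.16 CPM). In CPM cIDR was lower than FL in 4 of 4 batches, as were 5.01% of genes. On the deposited per-length scale (TPM), cIDR (2.69) was above FL (2.58) in batch 1. NCTAD was 2.49, 1.83 and 2.09 times FL in batches 1, 3 and 4 and 0.794 times FL in batch 2, and 30.2% of genes were higher in at least 3 batches. Without the batch 2 library of FL, the fitted cIDR to FL difference changed from −0.85 to −0.24 and the NCTAD to FL difference from 0.56 to 1.18.

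The order of the constructs by EPAS1 differed from their order by CXCR4. EPAS1 was highest in cIDR in 4 of 4 batches, at 4078, 2189, 5852 and 5816 CPM. In CPM, CXCR4 was lowest of the 3 constructs in cIDR in every batch. In batch 1, however, cIDR and FL were nearly equal for CXCR4 (3.14 and 3.16 CPM), and in TPM cIDR (2.69) was above FL (2.58). In NCTAD, EPAS1 was 2203, 1320, 4228 and 3655 CPM, and in FL it was 1691, 2001, 3580 and 3164 CPM. Between NCTAD and FL the sign was shared: in batches 1, 3 and 4 both EPAS1 and CXCR4 were higher in NCTAD, and in batch 2 both were higher in FL. CPM are not scaled for length, and in TPM the batch 2 levels of EPAS1 were nearly equal (1950 in FL and 1899 in NCTAD). Within each construct, batches 3 and 4 had the highest EPAS1 levels and the lowest CXCR4 levels. EPAS1 counts do not separate the endogenous gene from a construct, and RNA is no measure of the protein.

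**Figure D2:**
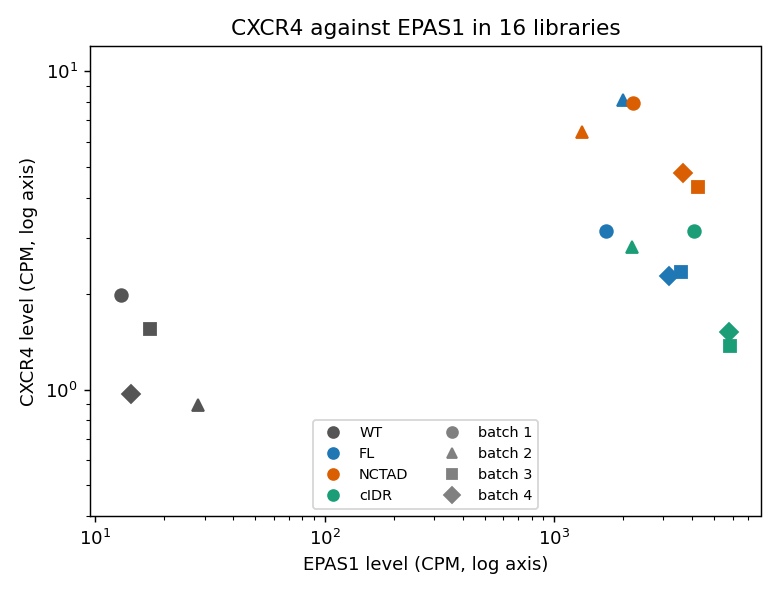
CXCR4 level against EPAS1 level, both in CPM on log axes, with 1 point per library, colours for groups and shapes for batches. The cIDR points lie farthest to the right within each batch and below the NCTAD points of the same batch. They are also below the FL points, though nearly level with FL in batch 1 (3.14 and 3.16 CPM). The 4 WT points lie between 13.0 and 28.1 CPM of EPAS1.

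The ligand CXCL12 was also low, with 9 to 79 counts per library, and its group means were close together. It was 0.877, 0.596, 1.28 and 1.05 CPM in WT and 1.16, 0.352, 1.68 and 0.836 CPM in FL in batches 1 to 4. In NCTAD it was 1.05, 0.283, 1.43 and 1.33 CPM. In cIDR it was 0.731, 0.158, 1.60 and 1.29 CPM. The groups overlapped in all 6 comparisons, and in each group the batch 2 library was the lowest.

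Group means of CXCL12 were 0.951 ± 0.289 CPM for WT, 1.01 ± 0.557 CPM for FL, 1.02 ± 0.520 CPM for NCTAD and 0.943 ± 0.634 CPM for cIDR (SD, n = 4). Fitted log2 differences between groups ran from −0.12 ± 0.59 (SE, cIDR against NCTAD) to 0.11 ± 0.59 (NCTAD against WT). All 6 changed sign when some single library was left out, and each was smaller than its SE. With the batch as a block the SE was 0.30 to 0.31 and the differences ran from −0.25 to 0.0030.

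Batch 2 divided the pair of genes. CXCL12 minus the mean log2 CPM of the other 3 batches was −0.79 in WT, −1.63 for FL and −2.57 for cIDR, with NCTAD between the latter pair, and 31.8% of genes were lower there in 4 of 4 groups. All 4 batch 2 libraries (0.158 to 0.596 CPM) lay below all 12 others (0.731 to 1.68 CPM). Of all tested genes 14.6% lay below in this way and 14.4% above, so this separation was common. In TPM the separation of CXCL12 was lost, with WT batch 2 at 0.363 and cIDR batch 1 at 0.351. Inside batch 2 the order in CPM was WT, FL, NCTAD, cIDR, from 32, 18, 14 and 9 counts. In TPM, NCTAD (0.295) was above FL (0.224). These are single libraries, so the order carries no replicate error. In the other batches cIDR was lowest only in batch 1, and it was above WT in batches 3 and 4.

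CXCR4 did not move one way in batch 2. Compared with the mean log2 CPM of the other 3 batches it was lower in WT (−0.66) and higher in FL (1.65), NCTAD (0.23) and cIDR (0.57). The WT library of batch 2 was the lowest of its group, the FL library the highest of its group, and those of NCTAD and cIDR lay inside the range of theirs. The CXCR4 range of batch 2, 0.894 to 8.13 CPM, overlapped that of the other batches, 0.966 to 7.92 CPM. EPAS1 in batch 2 was higher than in the other batches in WT (0.93) and lower in FL (−0.42), NCTAD (−1.30) and cIDR (−1.24).

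Summed leukocyte and endothelial markers lay above the other batches in batch 2, while Schwann and fibroblast sums overlapped between batches. Of all tested genes, 14.4% had all 4 batch 2 libraries above the other 12. Summed leukocyte markers were 15.2 to 16.5 CPM in batch 2 and 9.03 to 12.8 CPM elsewhere, of which CORO1A made up 7.93 to 14.6 CPM over all libraries. The 8 endothelial markers summed to 1.28 to 2.27 CPM in batch 2 and to 0.188 to 1.18 CPM elsewhere, the 6 Schwann markers to 5.96 to 7.38 against 3.92 to 6.19 CPM. The 9 fibroblast markers, of which THY1 alone was 260 to 388 CPM, summed to 457 to 474 CPM in batch 2, inside the range of the other batches (428 to 497 CPM). The part of these genes in the batch 2 levels of CXCR4 and CXCL12 was not tested. Between groups the summed endothelial markers were 0.188 to 1.28 CPM (WT), 0.657 to 2.27 CPM (FL), 0.652 to 1.98 CPM (NCTAD) and 0.700 to 2.25 CPM (cIDR), so that both ends of the range were lower in WT than in each construct, as for CXCR4, although the ranges overlapped. Their part in the CXCR4 differences was not tested. The summed leukocyte markers overlapped too, at 9.35 to 15.2 CPM (WT), 9.03 to 16.5 CPM (FL), 9.31 to 16.1 CPM (NCTAD) and 9.96 to 15.5 CPM (cIDR).

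Batches 1, 3 and 4 also differed for CXCR4. The batch 1 library was higher than the mean of batches 3 and 4 in 4 of 4 groups, by 0.68 (WT), 0.44 (FL), 0.79 (NCTAD) and 1.10 (cIDR) in log2 CPM, a direction shown by 16.4% of tested genes. CXCL12 was lower in batch 1 in 4 of 4 groups, with log2 differences of −0.39, −0.026, −0.39 and −0.93, as were 13.6% of genes. The 4 libraries of a batch share its handling, so each batch is 1 observation and no test was made.

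The second receptor, ACKR3, was at the limit of detection. It had 0 counts in 12 libraries, 2 in FL batch 2, 1 and 2 in NCTAD batches 1 and 2, and 3 in cIDR batch 4, which makes 8 counts in all 16 libraries. A count of 0 allows up to 3 counts, or 0.0528 to 0.0812 CPM depending on the library, and the highest value was 0.0677 CPM. ACKR3 did not pass the low-count filter, was therefore not fitted, and no ratio is given because all groups were at or under this limit. On the deposited per-length scale (TPM) CXCR4 averaged 3.01 ± 2.09, CXCL12 0.622 ± 0.322 and ACKR3 0.00781 ± 0.0152 TPM (SD, 16 libraries).

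The peptide hormone adrenomedullin, encoded by ADM, is another ligand that ACKR3 binds and takes up. Its mean level in WT was 1.31 CPM, and those of FL, NCTAD and cIDR were 2.69 ± 1.48, 3.40 ± 1.09 and 3.75 ± 1.33 CPM (SD, n = 4). ADM was higher in cIDR than in FL in 4 of 4 batches, as were 4.91% of genes. CXCR4 was lower there in 4 of 4 batches in CPM. In batch 1, though, its levels were nearly equal (3.14 and 3.16 CPM), and in TPM cIDR was above FL. In batch 2 ADM was higher by 0.29 in WT and by 0.79 to 1.30 in the constructs. Its mean difference over groups was 0.81, and by that mean 10437 of 19530 tested genes were higher there.

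Around the members, 147 genes were listed in 7 groups: ligands of the axis, receptor partners and ligand-cleaving enzymes, the remaining chemokine receptors, the remaining chemokines, G proteins, desensitisation and trafficking, and downstream signalling. Most chemokine genes were silent or close to it: 1 of 21 further receptors and 1 of 28 further chemokines passed the filter, and 16 and 23 of those that did not had at most 3 counts in any library. CCR10, a receptor for skin and mucosal chemokines, was present at 6.04 to 13.2 CPM. CX3CL1, a membrane-anchored chemokine made by neurons, averaged 16.7 TPM. CXCL11, the other chemokine bound by ACKR3, had at most 5 counts.

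In edgeR's quasi-likelihood test 0 of the 89 listed genes that passed the filter were called in any of the 6 comparisons, with 0 at an unadjusted p under 0.05, beside 0.609% to 1.42% of all genes at that unadjusted threshold. Of all genes, 0.0102% were called for FL, 0.0256% for NCTAD and 0.0102% for cIDR relative to WT, and 0.0% between constructs. DESeq2 called 0 of the 89 as well, beside 0.0563% (FL), 0.087% (NCTAD) and 0.041% (cIDR) of all genes relative to WT, 0.0102% (NCTAD) and 0.0% (cIDR) relative to FL, and 0.0154% for cIDR relative to NCTAD. At an unadjusted p under 0.05 it had 1 of the 89 in the cIDR to WT comparison, 1 in cIDR to FL and 0 in the others, beside 0.538% to 1.47% of all genes. With the batch as a block edgeR called 0 of the 89, beside 0.102% (FL), 0.456% (NCTAD) and 0.486% (cIDR) of all genes relative to WT, 0.0% (NCTAD) and 0.0307% (cIDR) relative to FL, and 0.00512% for cIDR relative to NCTAD. In that order 4, 4, 6, 2, 2 and 0 of the 89 had an unadjusted p under 0.05 in the blocked fit, beside 5.11%, 5.96%, 5.45%, 3.69%, 3.68% and 2.15% of all genes. The median log2 fold change of the 89 relative to WT was 0.016 (FL), 0.033 (NCTAD) and 0.025 (cIDR), beside 0.014, 0.019 and 0.0097 over all genes tested.

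The most abundant genes of these lists had small fitted differences between groups. MIF, a cytokine that can also bind CXCR4, was present at 588 to 956 CPM and differed from WT by 0.12 ± 0.17 (log2 ± SE) in FL, 0.13 ± 0.17 in NCTAD and 0.18 ± 0.17 in cIDR. HMGB1, a nuclear protein that binds CXCL12 once released, was present at 849 to 1161 CPM and differed by 0.016 ± 0.11, 0.019 ± 0.11 and −0.0079 ± 0.11. MMP2, a protease that cleaves CXCL12, differed by 0.24 ± 0.15, 0.031 ± 0.15 and −0.011 ± 0.15, and the heparan sulfate carrier SDC1 by at most 0.15 in any comparison. For the G protein subunits GNB1 and GNB2, the trafficking GTPases RAB7A and RAB11A, the actin regulators RHOA and CFL1, and CCR10 and CX3CL1, the fitted differences in the 6 comparisons were at most 0.19. The edgeR adjusted p of the 89 tested genes in the 6 comparisons was at least 0.999883 without the block and at least 0.674 with it.

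Batch 2 stood apart for some of these genes. Of the 89, 16 had all 4 batch 2 libraries above the other 12 and 14 had them below, shares near the 14.4% and 14.6% of all genes. The 5 with the largest log2 difference upward, picked after their values were seen, were MMP9 (2.89), the kinase JAK3 (2.53), CD74 (1.49), the GTPase RAC2 (1.41) and the membrane protease MMP14 (1.15). MMP9, a protease that cleaves CXCL12, was 0.940 to 1.60 CPM in batch 2 and 0.0452 to 0.263 CPM elsewhere. CD74, the MIF receptor that pairs with CXCR4, was 1.21 to 1.81 against 0.193 to 0.685 CPM. CD44, another partner of CD74, lay below (1.74 to 2.25 against 2.28 to 3.53 CPM). CCR10 (11.3 to 13.2 against 6.04 to 9.68 CPM) was above, while CX3CL1 (a log2 difference of −0.36) and HMGB1 (849 to 923 against 1006 to 1161 CPM) were below. Each batch is again 1 observation, and no test was made.

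The genes whose pattern over the 16 libraries was most like that of CXCR4 were found by the root mean square difference of log2 CPM after subtracting each gene's mean. Among 12374 genes with a symbol and a mean log2 CPM of at least 1, the nearest were RGMA (0.70), HTR1E (0.71), VSTM2L (0.71), SOBP (0.72), CRH (0.73) and RGS8 (0.73). A gene with no variation would score 0.96, so none followed CXCR4 closely. Any likeness to CXCR4 follows from how they were picked. RGMA, a membrane-anchored guidance molecule, ranged from 4.06 to 5.72 CPM in WT, 6.19 to 7.83 CPM in FL, 6.44 to 15.7 CPM in NCTAD and 6.72 to 8.72 CPM in cIDR, so that unlike CXCR4 its cIDR libraries did not overlap WT. HTR1E, a serotonin receptor, ranged from 7.82 to 10.3 CPM in WT, 11.1 to 13.8 CPM in FL, 12.7 to 22.5 CPM in NCTAD and 10.1 to 18.6 CPM in cIDR. VSTM2L, SOBP and RGS8, the last an inhibitor of G protein signalling, had their highest library in FL batch 2, as CXCR4 had. CRH, the corticotropin-releasing hormone, was highest in NCTAD batch 2.

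For CXCL12 the nearest genes were closer: ATOH8 (0.37), SAMD11 (0.40) and SGK1 (0.40), where a gene with no variation would score 0.87. As matches to CXCL12, all 3 had their 4 batch 2 libraries below the other 12, as 14.6% of all genes had, and this follows from how they were picked. ATOH8, a transcription factor, was 1.06 to 1.62 CPM in batch 2 and 2.84 to 4.99 CPM elsewhere. SGK1, a serum- and glucocorticoid-regulated kinase, was 42.9 to 52.6 CPM in batch 2 and 111 to 139 CPM elsewhere. SAMD11 was 3.63 to 5.34 against 11.1 to 17.2 CPM.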

How the data were processed

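Estimated counts per gene were deposited by the authors without scaling to depth or length, and the deposited TPM values of the same genes are scaled for length and sum to the same total in each library. Per the submitters' processing notes, fastp, STAR, Salmon, featureCounts and GRCh38 were used; their roles, versions and the annotation are not given in the sources used here. Rounding to integers altered the 15.5% of estimated counts that held a fraction. Low counts were removed with filterByExpr, leaving 19530 genes. One edgeR 4.0.16 quasi-likelihood model (TMM, R 4.3.3) over 16 libraries had group as its only term, with calls at a Benjamini-Hochberg adjusted p under 0.05. CPM use TMM-scaled sizes, log2 CPM a prior count of 2.

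Labels give the replicate number as a batch: deviations from group means correlated across genes by 0.308 on average within a batch and −0.0945 between batches. Within groups, no pair of libraries were copies (lowest chi-square per degree of freedom 7.24). Members and gene lists were chosen with earlier results of these data known. Named were the members, EPAS1, ADM, of each list the 2 genes that passed the filter with the highest mean TPM (CCR10 and CX3CL1 alone in theirs), any listed gene that was called (there were 0), and the 6 and 3 genes most like CXCR4 and CXCL12; CXCL11, JAK3, RAC2, MMP9, MMP14, CD74 and CD44 were added after their values were seen. Deposited columns named WT hold the FL group, those named CTRL the WT group and those named NTAD the NCTAD group, as the library names in the labels tie them to sample titles. All column names begin with BE2c, whereas the sample titles give the line as SK-N-BE(2). Alternatives used DESeq2 1.42.0, limma 3.58.1, other size factors and filters, TPM, the block and single libraries left out; the 2 without batch 2 were chosen after seeing the data.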

Additional observations from a re-analysis of the deposited data

Results flagged for a closer look

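In FL, the CXCR4 level of batch 2 (8.13 CPM) stood apart from the next library (3.16 CPM) by 0.849 of the whole range of that group, past Dixon's critical value for 4 samples on linear CPM. On log2 CPM the share was 0.743, which is under that value. It describes a gene chosen on these levels and supports nothing further; 16 groups of 4 were examined, and chance flags about 1 in 20. The batch 2 difference of CXCR4 had opposite signs in WT and FL, where the batch 2 library was below, or above, each of the other 3 of its group: the WT difference minus the FL difference was −2.31 on the log2 scale. For EPAS1 the batch 2 library was the highest in WT and the lowest in NCTAD and cIDR, with differences between groups of 2.23 (WT minus NCTAD) and 2.17 (WT minus cIDR). None of these 3 differences between groups was tested, since each batch holds 1 library per group.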

How the results depend on the processing

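CXCR4 kept its direction in the 6 comparisons under all 26 alternatives, as log2 fold changes of 0.76 to 1.81 (FL), 1.44 to 2.37 (NCTAD) and 0.37 to 0.96 (cIDR) against WT, 0.37 to 1.18 (NCTAD) and −1.06 to −0.24 (cIDR) against FL, and −1.63 to −1.07 (cIDR against NCTAD). Moves beyond the replicate SD were FL against WT without batch 2 (0.7589, and 0.7968 with the block as well) and NCTAD against WT with log2(TPM + 1), 1.444, where the pseudocount shrinks low levels. CXCL12 changed sign in 3 to 7 of 25 alternatives per comparison, and with at least 10 counts in every library it had no value. Its batch 2 difference, −1.75, was −0.4437 with log2(TPM + 1) and −2.07 to −1.47 in the other alternatives. The CXCR4 batch 2 difference, 0.45 averaged over groups, ranged from 0.048 to 0.82, the former without the FL libraries. The listed genes tested, 86 to 89 by alternative, gave 0 calls in each. With the batch as a replicate block, calls over all genes changed from 2, 5, 2, 0, 0 and 0 (FL, NCTAD, cIDR against WT; NCTAD, cIDR against FL; cIDR against NCTAD) to 20, 89, 95, 0, 6 and 1. They were 11, 17, 8, 2, 0 and 3 with DESeq2, 10, 39, 33, 0, 5 and 0 without batch 2, and 16, 62, 46, 5, 10 and 0 without batch 2 and with the block. At least 10 counts in every library gave 1, 3 and 1 against WT, TPM with pseudocounts of 1 and 0.1 gave 1 and 2 for NCTAD, and the 8 libraries of the comparison alone gave 1 for cIDR. Single libraries left out gave 2 to 9 calls for NCTAD against WT. Causes were not tested. ACKR3, with 8 counts in all, could not be compared at this depth, and the SE of CXCL12 fell from 0.59 to 0.30 or 0.31 with the block.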
